A study of Solanum lycopersicum with 48 samples.

Results

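Sucrose and hexose transporters move sugar across membranes, and 5 of them were read in roots and leaves of tomato seedlings. The genes were taken by locus number, namely the sucrose transporters SUT1 (Solyc11g017010), SUT2 (Solyc05g007190) and SUT4 (Solyc04g076960) and the hexose transporters HT1 (Solyc02g079220) and HT2 (Solyc09g075820). All 5 were found among the 29898 genes of the deposited table, and all 5 passed the filter on low values in root and in leaf. The digits after "Solyc" place them on chromosomes 11, 5, 4, 2 and 9. The table gives no gene names, and a RefSeq gene table for tomato carries the same 5 symbols on the same chromosomes.

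Leaves make sucrose from photosynthesis and load it into the phloem, which carries it to roots and other organs that use it. SUT1 is the plasma membrane proton and sucrose symporter of the phloem in tomato and its relatives, SUT2 is a relative with a long central loop, and SUT4 belongs to a low-affinity group that is found on the vacuole membrane in several plants. In the receiving organ, invertases split sucrose into glucose and fructose, and proton-coupled hexose transporters such as HT1 and HT2 take those sugars into cells. Other sugar carriers of the SWEET family let sugar cross membranes along its gradient.

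The plants were the cultivars Guozhen No.1 and Guizhen No.1, kept in hydroponic culture in Hoagland solution with low (1 mM) or normal (9 mM) nitrogen, the normal level being labelled CK. Roots and leaves were taken at day 7 and at day 1, which gives 16 groups of 3 libraries and 48 in all. The labels give neither plant age nor the event from which days were counted. They do not say whether replicates are separate plants, so that p-values here measure the spread between samples only.

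Expression is in FPKM, a read measure corrected for gene length and library size. Each library summed to between 577123 and 689680 FPKM and had 16983 to 18640 genes at or above 1 FPKM. Read totals are unknown. Depth relative to the median library, estimated from the smallest values, was 0.75 to 2.16, and the highest was Guozhen root, day 7, normal nitrogen, replicate 2. Summed FPKM of 4 leaf markers, Rubisco small subunits and a chlorophyll a/b binding protein, was 10.3 to 72.7 in root libraries and 3784 to 79677 in leaf libraries. Of 4 loci preset as root markers, Solyc02g069200 and Solyc11g069750 stayed at or below 0.113 FPKM in leaf. Their medians in root were 5.11 and 2.08 FPKM, with the lowest root library at 0 for each. Solyc01g094910 had a median of 0.994 FPKM in root and 17.7 FPKM in leaf, and Solyc09g090070 183 and 160 FPKM. The 4 summed to 87.6 to 370 FPKM in root and 10.1 to 1009 FPKM in leaf, and so did not separate the organs.

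Differences are of mean log2(FPKM + 1), which understates the fold of weakly expressed genes. They were tested with limma over 20435 genes in root, 19815 in leaf and 22117 where root was set against leaf. A gene was called when its Benjamini-Hochberg adjusted p was below 0.05. Standard errors of differences (SE) are those of limma, and SD is over 3 libraries unless another n is given. An exact two-sided permutation test of 3 against 3 libraries cannot give a p below 0.1 and was not used. In whole organs, fewer cells of a type and less RNA per cell cannot be told apart.

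**Figure D1:**
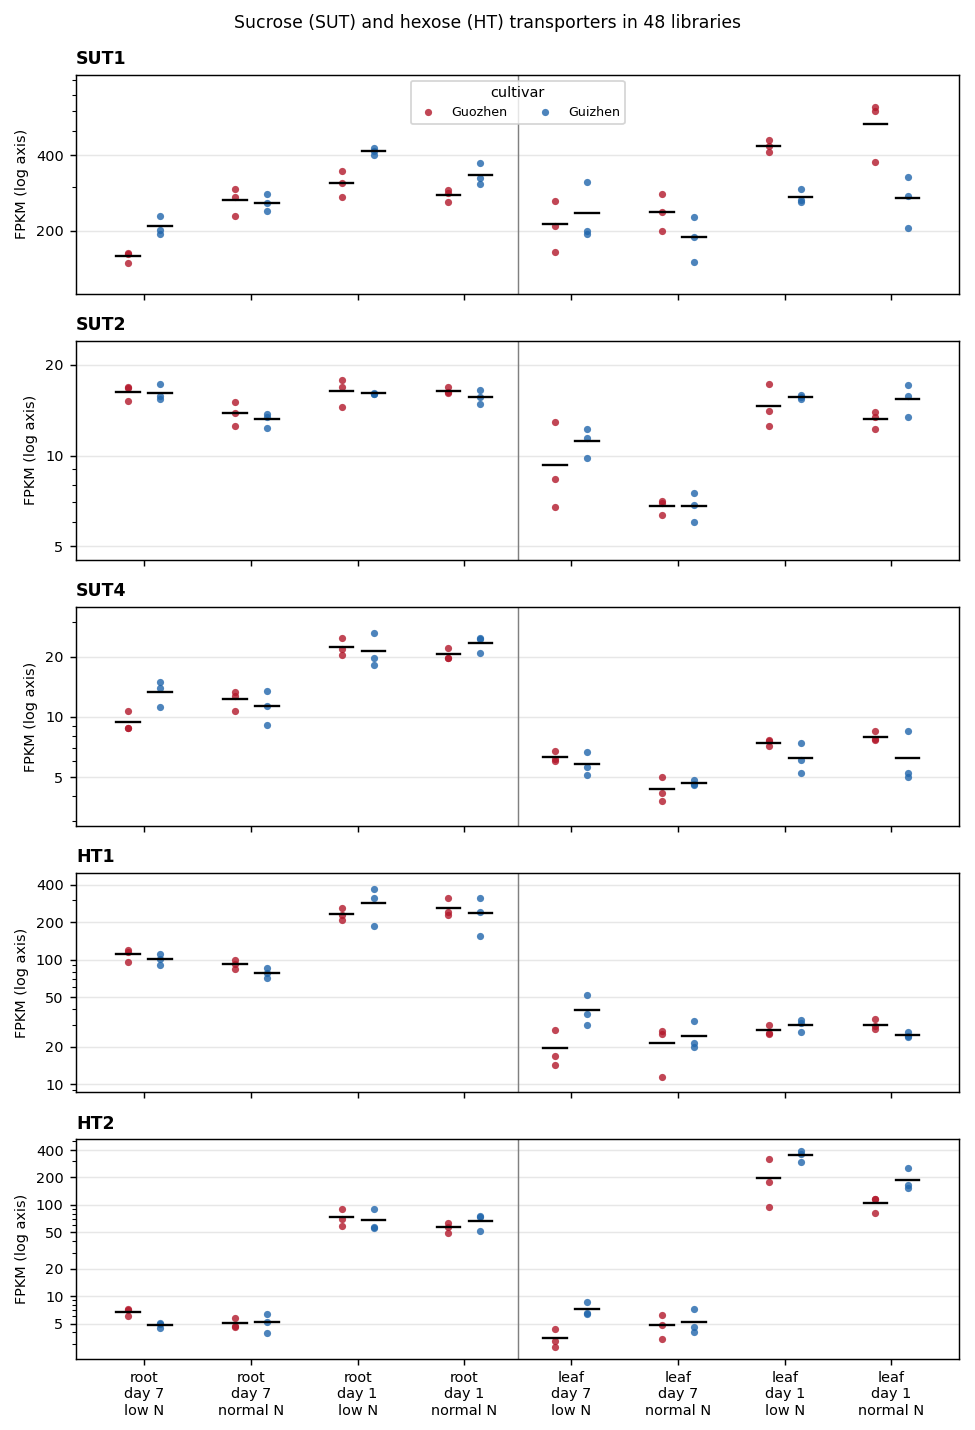
FPKM on a log axis of the 5 transporters in each of 48 libraries, by organ, day and nitrogen level, with 1 point per library, coloured by cultivar, and a bar at the mean of each group of 3. SUT1 is at 149 FPKM or more in every library, and HT2 is at most 8.70 FPKM at day 7 and at least 49.4 FPKM at day 1.

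SUT1 was the most abundant of the sucrose transporters in all 48 libraries. It ran from 149 to 625 FPKM with a median of 272 FPKM, which put it at or above the 97.7th percentile of genes in every library. SUT2 ran from 6.01 to 17.8 FPKM and SUT4 from 3.79 to 26.3 FPKM. SUT1 made up 85.3 to 96.8% of the summed FPKM of the sucrose transporters. Between the minor pair, SUT4 stood above SUT2 in 12 of 12 root libraries of day 1, while SUT2 stood above SUT4 in 11 of 12 root libraries of day 7 and in 12 of 12 leaf libraries of each day.

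The hexose transporters changed places with organ and day. HT1 ran from 11.4 to 367 FPKM and HT2 from 2.76 to 387 FPKM, so that the highest HT2 library was 141-fold above the lowest, against 4.20-fold for SUT1 and 2.96-fold for SUT2. HT2 made up 74.9 to 93.2% of the HT1 and HT2 sum in leaves of day 1. Its share was 10.8 to 22.7% in leaves of day 7, 4.21 to 8.26% in roots of day 7 and 15.4 to 30.1% in roots of day 1. In the plot of HT2 against HT1 the 4 sets of libraries fell into separate clouds.

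**Figure D2:**
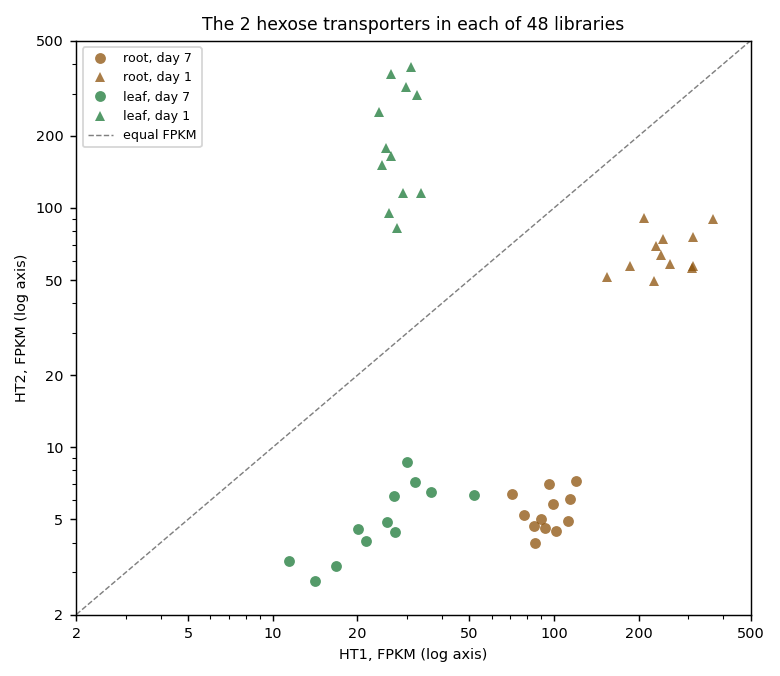
HT2 FPKM against HT1 FPKM in 48 libraries, both axes log, with brown for root, green for leaf, circles for day 7, triangles for day 1 and a dashed line of equal FPKM. All 12 leaf libraries of day 1 lie above the line and the other 36 lie below it.

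Group means were ordered from the highest to the lowest for each gene, and few neighbours in that order were apart. For SUT1, 1 of 15 neighbouring pairs of groups did not overlap in their libraries, for SUT2 1, for SUT4 5, for HT1 2 and for HT2 3. No such count was made over all genes, so that these counts describe the order only and say nothing particular about the transporters. SUT1 was highest in Guozhen leaves of day 1 at normal nitrogen, 534 ± 138 FPKM, and lowest in Guozhen roots of day 7 at low nitrogen, 157 ± 7.51 FPKM. HT1 had its 8 highest groups in root, and its 4 root groups of day 1 stood clear of its 4 root groups of day 7. HT2 had its 8 highest groups at day 1, the first 4 of them in leaf.

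Low nitrogen went with less SUT1 in roots at day 7, most clearly in Guozhen. In Guozhen roots SUT1 read 163, 161 and 149 FPKM at low nitrogen, against 272, 228 and 294 FPKM at normal nitrogen. The lowest normal library stood well above the highest low library. The means were 157 ± 7.51 and 265 ± 33.7 FPKM, and SUT1 fell by 0.74 ± 0.11 (SE, n = 3 each, limma adjusted p = 0.000178). In Guizhen roots SUT1 read 201, 194 and 229 FPKM at low nitrogen, against 258, 239 and 279.8 FPKM at normal nitrogen. Those groups did not overlap either, with means of 208 ± 18.8 and 259 ± 20.2 FPKM, but the change of -0.31 ± 0.11 was not called (adjusted p = 0.101). Without low replicate 3 it was called (adjusted p = 0.0451).

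No other transporter was called in roots of a single cultivar at day 7. SUT2, the relative with the long loop, averaged 16.3 ± 0.981 FPKM at low and 13.8 ± 1.26 FPKM at normal nitrogen in Guozhen (adjusted p = 0.0616), and 16.1 ± 1.03 and 13.2 ± 0.739 FPKM in Guizhen (adjusted p = 0.0618). The libraries of low and normal nitrogen did not overlap in either cultivar. SUT2 was called in Guozhen with size-factor scaling (adjusted p = 0.0222) or without normal replicate 1 (adjusted p = 0.0337), and in Guizhen without low replicate 3 (adjusted p = 0.0445). SUT4 averaged 9.46 ± 1.09 FPKM at low and 12.2 ± 1.40 FPKM at normal nitrogen in Guozhen, and 13.3 ± 1.95 and 11.3 ± 2.21 FPKM in Guizhen (adjusted p = 0.0972 and 0.396). HT1 averaged 110.2 ± 12.4 and 92.3 ± 7.35 FPKM in Guozhen and 101 ± 10.9 and 78.1 ± 7.32 FPKM in Guizhen (adjusted p = 0.449 and 0.364). The HT1 libraries of low and normal nitrogen did not overlap in Guizhen, but did in Guozhen. HT2 stayed between 3.97 and 7.24 FPKM in these 12 libraries. In Guozhen roots HT2 read 6.99, 6.08 and 7.24 FPKM at low nitrogen, against 5.81, 4.59 and 4.71 FPKM at normal nitrogen. Those groups did not overlap, and the change of 0.37 was not called (limma adjusted p = 0.172). In Guizhen roots HT2 averaged 4.80 FPKM at low and 5.18 FPKM at normal nitrogen, and the groups overlapped (adjusted p = 0.879).

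In leaves at day 7, SUT2 was called higher at low nitrogen in Guizhen and SUT4 in Guozhen. Neither was called in the other cultivar, though its mean was higher at low nitrogen there too. SUT2 in Guizhen leaves read 11.5, 12.3 and 9.85 FPKM at low nitrogen, against 6.01, 6.88 and 7.49 FPKM at normal nitrogen. All 3 low libraries lay above all 3 normal libraries, and SUT2 rose by 0.65 ± 0.16 (SE, n = 3 each, limma adjusted p = 0.0164). In Guozhen leaves SUT2 read 6.73, 12.9 and 8.33 FPKM at low nitrogen, against 6.36, 7.09 and 6.95 FPKM at normal nitrogen (adjusted p = 0.136). There the low libraries were spread widely and overlapped the normal ones, and without low replicate 1 SUT2 was called (adjusted p = 0.0219). The Guizhen call was lost without low replicate 1, low replicate 2 or normal replicate 1 (adjusted p = 0.0635, 0.0765 and 0.0622) and with only the libraries compared in the fit (adjusted p = 0.0606).

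SUT4 in Guozhen leaves of day 7 read 6.15, 5.985 and 6.76 FPKM at low nitrogen, against 5.03, 3.79 and 4.18 FPKM at normal nitrogen. The groups did not overlap, and SUT4 rose by 0.46 ± 0.15 (SE, n = 3 each, limma adjusted p = 0.0436). In Guizhen leaves it averaged 5.81 ± 0.781 FPKM at low and 4.66 ± 0.133 FPKM at normal nitrogen, also with no overlap (adjusted p = 0.239). The Guozhen call was lost without low replicate 1, 2 or 3 or normal replicate 2 or 3 (adjusted p = 0.0605 to 0.160), with size-factor scaling (adjusted p = 0.166), with no filter (adjusted p = 0.0564) and with only the libraries compared (adjusted p = 0.118). Over all genes in leaves at day 7 the median change was 0.14 in Guozhen and 0.16 in Guizhen, and that scaling moved both by -0.13.

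SUT1, HT1 and HT2 were not called in leaves of day 7. SUT1 averaged 212 ± 50.2 FPKM at low and 238 ± 39.6 FPKM at normal nitrogen in Guozhen, and 235 ± 67.6 and 189 ± 38.3 FPKM in Guizhen. HT1 read 51.9, 30.0 and 36.4 FPKM at low nitrogen in Guizhen, against 20.04, 32.2 and 21.4 FPKM at normal nitrogen, and the groups overlapped (adjusted p = 0.0966). HT2 averaged 3.46 ± 0.856 and 4.84 ± 1.46 FPKM in Guozhen and 7.16 ± 1.33 and 5.27 ± 1.69 FPKM in Guizhen.

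At day 1 no transporter was called for nitrogen in either organ or cultivar, in 20 tests with limma, of which 3 had an unadjusted p below 0.05. Of those 3, 2 were HT2 in leaf. In Guozhen leaves HT2 read 322, 178 and 95.1 FPKM at low nitrogen, against 115.4, 115.1 and 82.3 FPKM at normal nitrogen (adjusted p = 0.437). The 3 low libraries differed from each other more than the normal ones did. In Guizhen leaves it read 297, 361.5 and 387 FPKM at low nitrogen, against 152, 252 and 165 FPKM at normal nitrogen, with no overlap (adjusted p = 0.214). Without low replicate 3 of Guozhen, the library with 95.1 FPKM, HT2 was called in Guozhen leaves (log2 difference 1.21, adjusted p = 0.0138). The third was SUT1 in Guizhen roots, with 416 ± 13.5 FPKM at low and 334 ± 34.4 FPKM at normal nitrogen (adjusted p = 0.381).

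Over the 8 comparisons of low with normal nitrogen, 3 of 40 tests on the transporters were called. The share called among all genes was 27.6% in Guozhen and 7.92% in Guizhen roots at day 7, and 17.7% in Guozhen and 16.6% in Guizhen leaves at day 7. At day 1 it was 0.0391% in Guozhen and 0.00979% in Guizhen roots, and 0.0606% in Guozhen and 0.116% in Guizhen leaves. With 3 of 20 tests called at day 7, the transporters' share was near that of all genes. Leaving out 1 library gave 1 to 5 calls, with 1 call without Guizhen leaf, day 7, normal, replicate 1, and 5 without Guizhen root, day 7, low, replicate 3, or Guozhen root, day 1, low, replicate 3. With only the libraries compared in each fit, 1 call was left.

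**Figure D3:**
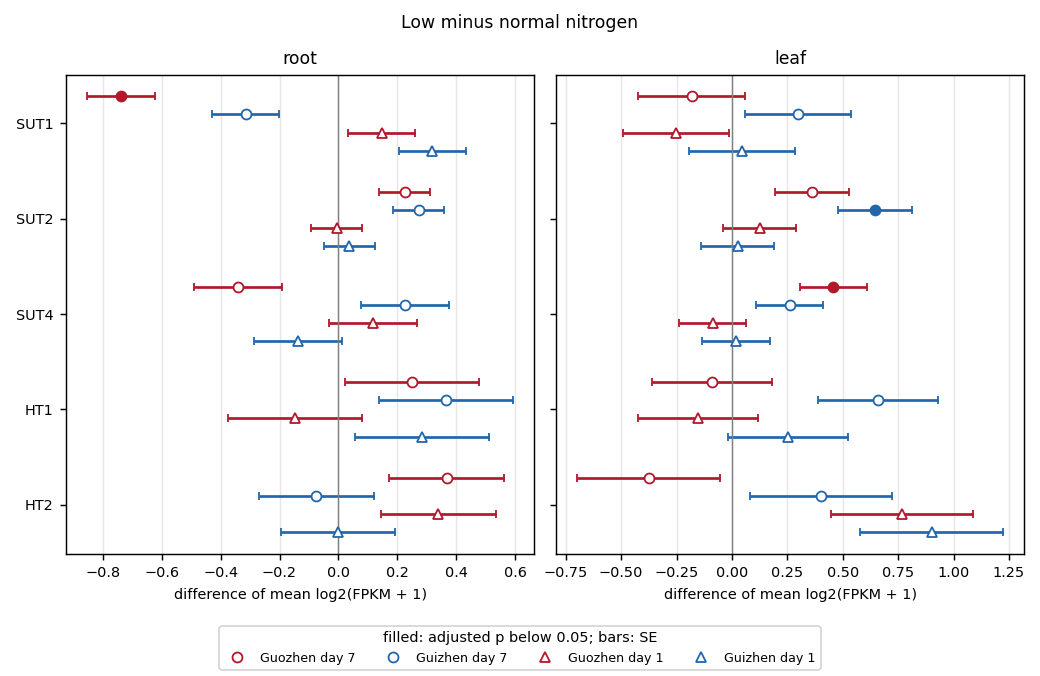
Low minus normal nitrogen as a difference of mean log2(FPKM + 1) for each transporter in root and leaf, with bars of 1 SE, red for Guozhen, blue for Guizhen, circles for day 7, triangles for day 1 and filled symbols for adjusted p below 0.05. The 3 filled symbols are SUT1 at -0.74 in Guozhen root and SUT4 at 0.46 and SUT2 at 0.65 in leaf, all at day 7.

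Averaged over the cultivars, 4 of 20 tests were called, all at day 7 and all on sucrose transporters. In roots SUT1 ran from 149 through a median of 178 to 229 FPKM in 6 low nitrogen libraries, against 228 through a median of 265 to 294 FPKM in 6 normal libraries, and fell by 0.53 ± 0.08 (limma adjusted p = 0.000108). The 2 ranges met at 1 library on each side. SUT2 averaged 16.2 ± 0.904 FPKM at low and 13.5 ± 0.984 FPKM at normal nitrogen in roots (n = 6 each) with no overlap, and rose by 0.25 ± 0.06 (limma adjusted p = 0.00505). Within roots SUT1 and SUT2 therefore moved in opposite directions at low nitrogen.

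In leaves SUT2 averaged 10.3 ± 2.40 and 6.80 ± 0.531 FPKM (n = 6 each) and rose by 0.50 ± 0.12 (limma adjusted p = 0.00289). SUT4 averaged 6.05 ± 0.619 and 4.50 ± 0.448 FPKM and rose by 0.36 ± 0.11 (adjusted p = 0.0143), with no overlap, though not with size-factor scaling (0.22, adjusted p = 0.138). HT2 at day 1 averaged 273 ± 114 and 147 ± 59.3 FPKM in leaves, a difference of 0.83 ± 0.23 that was not called (adjusted p = 0.0555). It was called without Guozhen leaf, day 1, low, replicate 3 (adjusted p = 0.00129) and without Guizhen leaf, day 1, normal, replicate 2 (adjusted p = 0.0317). HT1 averaged 106 ± 11.6 and 85.2 ± 10.2 FPKM in roots of day 7 and was not called (adjusted p = 0.163), except with only the libraries compared in the fit (adjusted p = 0.0247). Among all genes, 29.5% were called in roots and 36% in leaves at day 7, and 0.0734% in roots and 2.45% in leaves at day 1.

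Whether the cultivars differed in their nitrogen response was tested directly, and 0 of 20 tests were called with limma, 2 of them with an unadjusted p below 0.05. Both were in roots of day 7. The SUT1 response of Guozhen minus that of Guizhen was -0.42 ± 0.16 (SE, 95% interval -0.76 to -0.09, adjusted p = 0.186). For SUT4 it was -0.57 ± 0.21 (95% interval -1.01 to -0.13, adjusted p = 0.177). Among all genes 0.0734% were called in roots of day 1, 0.387% in roots of day 7, 0.0858% in leaves of day 1 and 0% in leaves of day 7, where 1055 of 19815 genes had an unadjusted p below 0.05.

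The nitrogen response differed between the days for SUT1 in roots of Guozhen. There SUT1 stood at 157 ± 7.51 and 265 ± 33.7 FPKM at low and normal nitrogen of day 7, and at 309 ± 36.6 and 278 ± 15.4 FPKM at low and normal nitrogen of day 1. The day 7 response minus the day 1 response was -0.88 ± 0.16 (SE, limma adjusted p = 0.00251). In Guizhen roots it was -0.63 ± 0.16 (adjusted p = 0.0655), and it was called without low replicate 3 of day 7 (adjusted p = 0.0192). This was 1 call in 20 tests. HT2 in Guozhen leaves, at -1.14 ± 0.46 (adjusted p = 0.133), was called without low replicate 3 of day 1 (adjusted p = 0.0177). Among all genes the difference between days was called for 13.3% in Guozhen roots, 0.935% in Guizhen roots, 4.84% in Guozhen leaves and 1.59% in Guizhen leaves.

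The transporters were called between day 7 and day 1 in 28 of 40 tests, each time lower at day 7. HT2, a hexose carrier, fell in all 8 comparisons. In Guozhen roots at low nitrogen it read 6.99, 6.08 and 7.24 FPKM at day 7, against 90.4, 69.7 and 58.5 FPKM at day 1. In Guizhen leaves at low nitrogen it read 6.31, 8.70 and 6.47 FPKM at day 7, against 297, 361.5 and 387 FPKM at day 1. The days did not overlap in any of the 8 comparisons, and the widest group, Guozhen leaves of day 1 at low nitrogen, still had its lowest library at 95.1 FPKM, against 4.41 FPKM for the highest of day 7. How many of all genes did not overlap between the days was not counted.

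The ratio of HT2 means, day 1 over day 7, was 10.8 to 14.1 in root and 21.6 to 57.3 in leaf. On the log2 scale HT2 changed by -3.23 ± 0.19 to -3.54 ± 0.19 in root and by -4.19 ± 0.32 to -5.42 ± 0.32 in leaf (SE, limma adjusted p between 1.22e-10 and 5.9e-09). Between 0.553 and 0.964% of all genes tested changed by as much or more in that direction. HT2 was called in all 8 comparisons under every alternative setting and without any 1 library. Whether the fall was larger in leaf than in root was not tested.

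HT1 fell in roots in all 4 comparisons. In Guizhen roots at normal nitrogen it read 70.8, 85.4 and 78.2 FPKM at day 7, against 244, 312 and 154.5 FPKM at day 1. The day 1 libraries were spread widely, but all lay above those of day 7. The changes of HT1 ran from -1.07 ± 0.23 (Guozhen, low) to -1.53 ± 0.23 (Guizhen, normal) (SE, limma adjusted p between 2.48e-05 and 0.000574). In leaf HT1 was not called. It averaged 19.4 ± 6.96 FPKM at day 7 and 27.0 ± 2.44 FPKM at day 1 in Guozhen at low nitrogen, and 21.2 ± 8.53 and 30.1 ± 3.13 FPKM at normal nitrogen (adjusted p = 0.111 and 0.0754). The first was called without day 7 replicate 2 (adjusted p = 0.0238), and the second without day 7 replicate 2 or 3 (adjusted p = 0.0421 and 0.0289). In Guizhen leaves HT1 averaged 39.4 ± 11.3 FPKM at day 7 and 30.0 ± 3.23 FPKM at day 1 at low nitrogen, and 24.5 ± 6.65 and 24.9 ± 1.26 FPKM at normal nitrogen. Whether the change of HT1 with day differed between the cultivars was not tested.

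SUT4, of the low-affinity group, fell in all 4 root comparisons. In Guozhen roots at low nitrogen it read 8.84, 10.7 and 8.83 FPKM at day 7, against 20.5, 24.7 and 21.9 FPKM at day 1. Every day 1 library was well above every day 7 library, and the 4 root changes ran from -0.64 ± 0.15 to -1.16 ± 0.15 (SE, limma adjusted p between 2.95e-06 and 0.00194). In leaf SUT4 was called lower in Guozhen at normal nitrogen only, with 4.33 ± 0.635 FPKM at day 7 and 7.96 ± 0.472 FPKM at day 1 (-0.75 ± 0.15, adjusted p = 0.000292), and with size-factor scaling this was not called (adjusted p = 0.0506). In Guozhen leaves at low nitrogen it averaged 6.30 ± 0.411 and 7.43 ± 0.279 FPKM with no overlap, and was not called. In Guizhen leaves at normal nitrogen it averaged 4.66 ± 0.133 and 6.25 ± 1.95 FPKM with no overlap (adjusted p = 0.0725), and was called without day 1 replicate 1 or 2 (adjusted p = 0.0413 and 0.0287). At low nitrogen it averaged 5.81 ± 0.781 and 6.24 ± 1.08 FPKM in Guizhen leaves, and the days overlapped. In Guozhen leaves the change of SUT4 with day was not called apart between the nitrogen levels (low minus normal 0.54, limma adjusted p = 0.130). Whether it differed between the cultivars or the organs was not tested.

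SUT1, the phloem symporter, fell in roots at low nitrogen in both cultivars. Guizhen roots read 201, 194 and 229 FPKM at day 7, against 429.6, 403 and 415 FPKM at day 1 (-0.998 ± 0.114, SE, limma adjusted p = 1.3e-06). Guozhen roots read 163, 161 and 149 FPKM, against 345, 272 and 311 FPKM (-0.96 ± 0.11, adjusted p = 1.16e-06). In both cultivars the days were far apart. At normal nitrogen, Guizhen roots averaged 259 ± 20.2 FPKM at day 7 and 334 ± 34.4 FPKM at day 1 (-0.36 ± 0.11, adjusted p = 0.0136), and Guozhen roots 265 ± 33.7 and 278 ± 15.4 FPKM (adjusted p = 0.598). The Guizhen call was lost without day 1 replicate 1 (adjusted p = 0.0796) or day 7 replicate 2 (adjusted p = 0.0640).

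In leaf SUT1 fell in Guozhen at both nitrogen levels, with changes of -1.07 ± 0.24 at low and -1.14 ± 0.24 at normal nitrogen (SE, limma adjusted p = 0.000781 and 0.000438). With size-factor scaling the change at normal nitrogen was -0.68 (adjusted p = 0.0190). Guozhen leaves averaged 212 ± 50.2 FPKM at day 7 and 437 ± 23.6 FPKM at day 1 at low nitrogen, and 238 ± 39.6 and 534 ± 138 FPKM at normal nitrogen. In Guizhen leaves SUT1 averaged 235 ± 67.6 and 273 ± 17.3 FPKM at low and 189 ± 38.3 and 269 ± 62.4 FPKM at normal nitrogen (adjusted p = 0.387 and 0.0788). At normal nitrogen Guizhen leaves were called without day 1 replicate 2 (adjusted p = 0.0312) or day 7 replicate 2 (adjusted p = 0.0474).

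SUT2 fell in all 4 leaf comparisons and in roots at normal nitrogen. In Guizhen leaves at normal nitrogen it read 6.01, 6.88 and 7.49 FPKM at day 7, against 13.4, 17.1 and 15.7 FPKM at day 1. The days were apart, and SUT2 fell by 1.07 ± 0.16 (SE, limma adjusted p = 1.82e-05). Guozhen leaves had changes of -0.87 ± 0.16 at normal and -0.63 ± 0.16 at low nitrogen (adjusted p = 0.000166 and 0.00269), the second only while the other groups shared the fit (adjusted p = 0.0736 with only the libraries compared). With size-factor scaling they were smaller, at -0.45 and -0.40 (adjusted p = 0.0179 and 0.0293). In Guizhen leaves at low nitrogen it fell by 0.45 ± 0.16 (adjusted p = 0.0234), which was lost with size-factor scaling (adjusted p = 0.0899) and without day 1 replicate 1 or 2 or day 7 replicate 3 (adjusted p = 0.0535, 0.0508 and 0.0955).

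In roots at low nitrogen SUT2 stood at 16.3 ± 0.981 FPKM at day 7 and 16.4 ± 1.70 FPKM at day 1 in Guozhen, and at 16.1 FPKM on both days in Guizhen. At normal nitrogen it averaged 13.8 ± 1.26 and 16.4 ± 0.406 FPKM in Guozhen and 13.2 ± 0.739 and 15.7 ± 0.884 FPKM in Guizhen. The changes there were -0.24 ± 0.09 and -0.23 ± 0.09 (SE, limma adjusted p = 0.0306 and 0.0356). These small changes were lost with size-factor scaling (adjusted p = 0.0546 and 0.0514) and with only the libraries compared (adjusted p = 0.113 and 0.0851). The Guozhen call was lost without day 1 replicate 1 or 3 or day 7 replicate 2 or 3 (adjusted p = 0.0552 to 0.146), and the Guizhen call without day 1 replicate 2 or 3 or day 7 replicate 2 or 3 (adjusted p = 0.0551 to 0.135). Between low and normal nitrogen the change of SUT2 with day was not called apart in roots (limma adjusted p = 0.224 in Guozhen and 0.406 in Guizhen).

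The 28 calls for day came from 17 of 20 tests in root and 11 of 20 in leaf. Among all genes, 54.5% were called in Guozhen roots at low nitrogen, 48.6% in Guozhen roots at normal nitrogen, 42.9% in Guizhen roots at low nitrogen and 45.7% in Guizhen roots at normal nitrogen. In leaf it was 61.9% and 61.6% in Guozhen and 59.2% and 59.8% in Guizhen, at low and normal nitrogen. Called lower at day 7 were 31.4, 25.9, 22.3 and 24.3% of genes in the same 4 root comparisons, and 41.1, 48, 36.3 and 42.4% in the same 4 leaf comparisons. Of the transporter tests, 70% were called lower.

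Leaf markers moved with day too. Their summed FPKM was 45383 to 79677 in leaves at day 7 and 3784 to 18637 in leaves at day 1, and in roots it was 10.3 to 39.1 FPKM at day 7 and 28.4 to 72.7 FPKM at day 1. The 4 root markers summed to 10.1 to 58.5 FPKM in leaves at day 7 and 304 to 1009 FPKM in leaves at day 1, with Solyc11g069750 at 0 in every leaf library. In roots they summed to 87.6 to 280 FPKM at day 7 and 158 to 370 FPKM at day 1. At day 1 the median sum was 293 FPKM in root and 434 FPKM in leaf, so that this list did not mark root there. The part of these markers in the results was not tested. The median change of all genes with day was -0.16 to -0.40 in leaf, and size-factor scaling raised it by 0.13 to 0.38.

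**Figure D4:**
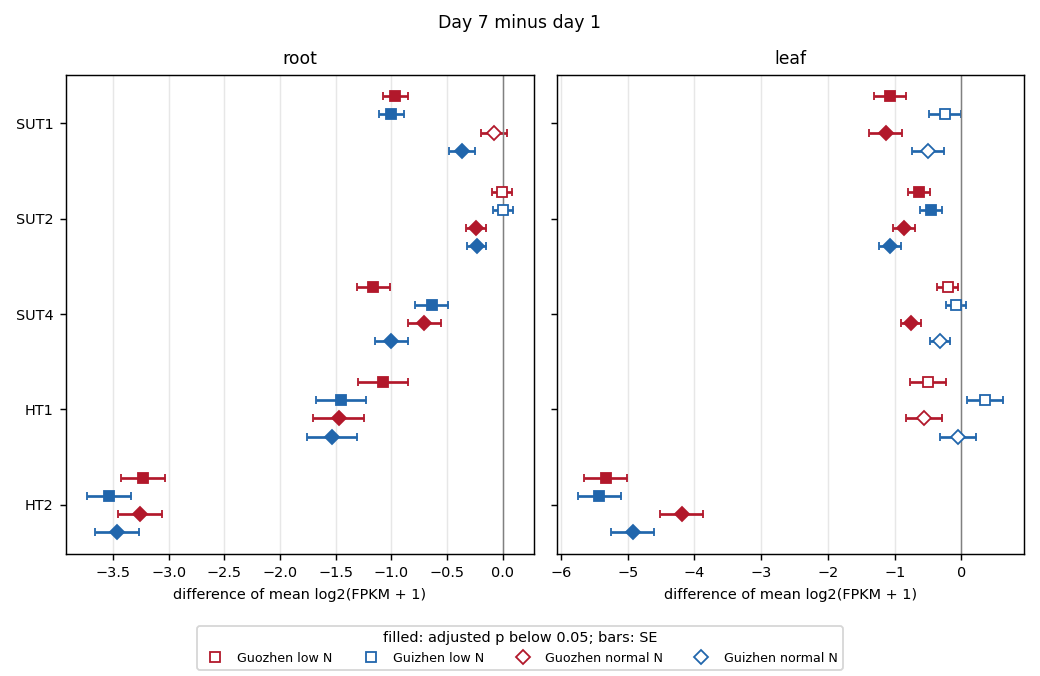
Day 7 minus day 1 as a difference of mean log2(FPKM + 1) for each transporter in root and leaf, with bars of 1 SE, red for Guozhen, blue for Guizhen, squares for low nitrogen, diamonds for normal nitrogen and filled symbols for adjusted p below 0.05. HT2 lies between -3.23 and -3.54 in root and between -4.19 and -5.42 in leaf, and HT1 has filled symbols in root but none in leaf.

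Guozhen and Guizhen were called apart in 2 of 40 tests, both on SUT1. In leaves of day 1 at normal nitrogen SUT1 read 602, 625 and 376 FPKM in Guozhen, against 328, 204 and 275 FPKM in Guizhen. Guozhen lay above Guizhen in every library, with 1 Guozhen library much lower than the other two, and the difference was 0.98 ± 0.24 (SE, n = 3 each, limma adjusted p = 0.0297). At low nitrogen of the same day SUT1 read 414, 461 and 436 FPKM in Guozhen leaves, against 259.9, 266 and 293 FPKM in Guizhen leaves, which did not overlap and were not called (adjusted p = 0.216). The call at normal nitrogen was lost without Guozhen replicate 1 or 2 (adjusted p = 0.131 and 0.137), without Guizhen replicate 2 (adjusted p = 0.180), and with only the libraries compared (adjusted p = 0.123).

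In roots SUT1 was lower in Guozhen at low nitrogen of day 7. It averaged 157 ± 7.51 FPKM in Guozhen and 208 ± 18.8 FPKM in Guizhen, a difference of -0.40 ± 0.11 (SE, n = 3 each, limma adjusted p = 0.0284). At low nitrogen of day 1 the roots averaged 309 ± 36.6 FPKM in Guozhen and 416 ± 13.5 FPKM in Guizhen with no overlap (-0.43 ± 0.11, adjusted p = 0.108). At normal nitrogen of day 1 they averaged 278 ± 15.4 and 334 ± 34.4 FPKM, also with no overlap (-0.26, adjusted p = 0.397). At normal nitrogen of day 7 they averaged 265 ± 33.7 and 259 ± 20.2 FPKM and overlapped. The call at day 7 was lost without Guozhen replicate 1, 2 or 3 (adjusted p = 0.0639, 0.0531 and 0.0790), without Guizhen replicate 1 or 3 (adjusted p = 0.0656 and 0.102), with size-factor scaling (adjusted p = 0.0641) and with only the libraries compared (adjusted p = 0.134).

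Some cultivar differences in the hexose transporters did not pass the test. In leaves of day 7 at low nitrogen HT1 read 14.1, 27.3 and 16.8 FPKM in Guozhen, against 51.9, 30.0 and 36.4 FPKM in Guizhen, a difference of -1.005 ± 0.270 with no overlap (SE, limma adjusted p = 0.0642). It was called without Guozhen replicate 2 (adjusted p = 0.0263) and, narrowly, with size-factor scaling (adjusted p = 0.0498). HT2 in those leaves averaged 3.46 ± 0.856 FPKM in Guozhen and 7.16 ± 1.33 FPKM in Guizhen, also with no overlap (adjusted p = 0.170). HT2 in leaves of day 1 averaged 198 ± 115 FPKM in Guozhen and 348 ± 46.7 FPKM in Guizhen at low nitrogen, and 104 ± 19.04 and 189.7 ± 54.5 FPKM at normal nitrogen (adjusted p = 0.173 and 0.179). Without Guozhen replicate 1, the library with 322 FPKM, the low nitrogen difference was called (-1.41, adjusted p = 0.0106).

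SUT4 in roots of day 7 at low nitrogen averaged 9.46 ± 1.09 FPKM in Guozhen and 13.3 ± 1.95 FPKM in Guizhen (adjusted p = 0.0527). It was called without Guozhen replicate 2 (adjusted p = 0.0482) or Guizhen replicate 3 (adjusted p = 0.0339). In leaves of day 1 at normal nitrogen it averaged 7.96 ± 0.472 and 6.25 ± 1.95 FPKM (adjusted p = 0.269), and was called without Guizhen replicate 3 (adjusted p = 0.03). SUT2 had no unadjusted p below 0.05 between the cultivars in any of its 8 tests. Among all genes, the cultivars were called apart for 12.7% in roots of day 7 at low and 0.925% at normal nitrogen, and for 0.763% and 1.56% in roots of day 1. In leaves it was 1.64% and 0.691% at day 7, and 1.61% and 2.92% at day 1.

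Root and leaf differed most in HT1, which was higher in root in all 8 comparisons. In Guozhen plants of day 1 at low nitrogen HT1 read 209.6, 230.3 and 259.6 FPKM in root, against 29.8, 25.2 and 25.95 FPKM in leaf. The ratio of means, root over leaf, ran from 2.56 in Guizhen of day 7 at low nitrogen to 9.60 in Guizhen of day 1 at low nitrogen. On the log2 scale the difference ran from 1.37 ± 0.26 to 3.17 ± 0.26 (SE, limma adjusted p between 3.38e-13 and 1.36e-05). In Guizhen of day 7 at normal nitrogen it was 1.66, and 1.06 with size-factor scaling (adjusted p = 0.000367). HT1 did not overlap between the organs in any of the 8, and it was called under every alternative setting and without any 1 library. How many of all genes did not overlap between the organs was not counted.

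SUT4 was higher in root in all 8 comparisons as well, by 0.52 ± 0.15 to 1.78 ± 0.15 on the log2 scale (SE, limma adjusted p between 8.57e-13 and 0.00255). In Guizhen plants of day 1 at normal nitrogen it read 24.5, 20.95 and 24.8 FPKM in root, against 5.23, 5.02 and 8.51 FPKM in leaf. The smallest difference was in Guozhen of day 7 at low nitrogen, with 9.46 ± 1.09 FPKM in root and 6.30 ± 0.411 FPKM in leaf, and with size-factor scaling it was not called (0.19, adjusted p = 0.265). In the other 3 comparisons of day 7 SUT4 differed by 1.07 to 1.31, and by 0.57 to 0.81 with that scaling, called each time. SUT2 was higher in root in all 4 comparisons of day 7, for example 13.8 ± 1.26 FPKM in root and 6.80 ± 0.388 FPKM in leaf of Guozhen at normal nitrogen (0.92 ± 0.13, adjusted p = 8e-08, and 0.39 with size-factor scaling, adjusted p = 0.00393). In Guizhen at low nitrogen, with 16.1 ± 1.03 and 11.2 ± 1.23 FPKM, the SUT2 call was lost with that scaling (0.49 ± 0.13, adjusted p = 0.00101, against 0.09 and 0.534). At day 1 SUT2 was not called in any of 4 tests, the nearest being Guozhen at normal nitrogen (adjusted p = 0.0504), which was called with only the libraries compared (adjusted p = 0.0209).

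HT2 was lower in root than in leaf in all 4 comparisons of day 1. In Guizhen plants of day 1 at low nitrogen it read 56.4, 89.9 and 57.1 FPKM in root, against 297, 361.5 and 387 FPKM in leaf (-2.37 ± 0.27, SE, limma adjusted p = 2.15e-09). The other 3 comparisons of day 1 were called with differences of -0.86 ± 0.27 to -1.47 ± 0.27, and the one in Guozhen at low nitrogen (-1.28 ± 0.27, adjusted p = 0.000122) was lost with only the libraries compared (adjusted p = 0.0559) and was -0.85 without leaf replicate 1 (adjusted p = 0.00604). At day 7 HT2 was higher in root in Guozhen at low nitrogen, with 6.77 ± 0.613 FPKM in root and 3.46 ± 0.856 FPKM in leaf (0.82 ± 0.27, adjusted p = 0.00826), though not with size-factor scaling (adjusted p = 0.0929). In Guizhen at low nitrogen it averaged 4.80 ± 0.3004 and 7.16 ± 1.33 FPKM (-0.48 ± 0.27, adjusted p = 0.115), and was called lower in root with size-factor scaling (adjusted p = 0.00645) and with only the libraries compared (adjusted p = 0.0338).

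SUT1 was abundant in both organs, and its direction between them depended on the cultivar at day 1. In Guozhen it was lower in root, with 309 ± 36.6 FPKM in root and 437 ± 23.6 FPKM in leaf at low nitrogen (-0.50 ± 0.19, SE, limma adjusted p = 0.0212) and 278 ± 15.4 and 534 ± 138 FPKM at normal nitrogen (-0.90 ± 0.19, adjusted p = 8.28e-05). In Guizhen it was higher in root at low nitrogen, with 416 ± 13.5 and 273 ± 17.3 FPKM (0.61 ± 0.19, adjusted p = 0.00565), and averaged 334 ± 34.4 and 269 ± 62.4 FPKM at normal nitrogen (adjusted p = 0.126). The Guozhen call at low nitrogen was lost without leaf replicate 2 (adjusted p = 0.0643), without root replicate 2 (adjusted p = 0.0984), and with only the libraries compared (adjusted p = 0.0700). Guizhen at normal nitrogen was called without leaf replicate 1 (adjusted p = 0.0408).

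A test of that difference, added after the data were seen, gave for SUT1 a Guozhen root minus leaf value that was lower than the Guizhen one by 1.24 ± 0.27 at normal nitrogen (log2 difference -1.24, limma adjusted p = 0.0130) and by 1.11 ± 0.27 at low nitrogen (-1.11, adjusted p = 0.0466). These were 2 calls in 20 tests. The call at normal nitrogen was lost without Guozhen leaf replicate 1 or 2, Guizhen leaf replicate 2 or Guizhen root replicate 1 (adjusted p = 0.0519 to 0.0789) and with only the libraries compared (adjusted p = 0.127). The call at low nitrogen was lost without any library but Guozhen leaf replicate 1 and Guozhen root replicate 1 (adjusted p = 0.0656 to 0.143 without each of the other ten), and with a pseudocount of 0.1, size-factor scaling or only the libraries compared (adjusted p = 0.0744, 0.0508 and 0.0682). Among all genes 0.389% and 0.732% were called at low and normal nitrogen of day 1, and 1.69% and 0.371% at low and normal nitrogen of day 7. At day 7 and low nitrogen HT2 (adjusted p = 0.0811) was called with only the libraries compared (adjusted p = 0.0471), and HT1 (adjusted p = 0.114) without Guozhen leaf replicate 2 (adjusted p = 0.0379). HT2 at day 1 and low nitrogen (adjusted p = 0.349) was called without Guozhen leaf replicate 1 (adjusted p = 0.0206).

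At day 7 SUT1 averaged 259 ± 20.2 FPKM in root and 189 ± 38.3 FPKM in leaf of Guizhen at normal nitrogen (0.47 ± 0.19, SE, limma adjusted p = 0.0239). With size-factor scaling its direction reversed (-0.14, adjusted p = 0.520), and the call was lost without leaf replicate 3 (adjusted p = 0.165) or root replicate 3 (adjusted p = 0.0805). In Guozhen at low nitrogen SUT1 averaged 157 ± 7.51 FPKM in root and 212 ± 50.2 FPKM in leaf (-0.40 ± 0.19, adjusted p = 0.0564), and was called lower in root with that scaling (adjusted p = 0.000393) and without leaf replicate 1 (adjusted p = 0.0121). In the other 2 comparisons of day 7 SUT1 overlapped between the organs.

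Altogether 29 of 40 root against leaf tests were called, 23 higher and 6 lower in root. Among all genes 57% and 59.2% were called in Guozhen and 58.2% and 59.5% in Guizhen at day 1, and 70.2% and 73.5% in Guozhen and 71% and 73.2% in Guizhen at day 7, at low and normal nitrogen. Called higher in root were 33.2% and 33.8% of genes in Guozhen and 34.3% and 36.7% in Guizhen at day 1, and 47.5% and 52.8% in Guozhen and 49.7% and 53.2% in Guizhen at day 7. The transporters' 72.5% was therefore near the share of all genes. Size-factor scaling moved the median difference of all genes by -0.08 to -0.46, so that the organs' differences are relative to the scaling chosen. Leaf libraries spend up to 79677 FPKM on the 4 leaf markers, and the part of that in the organ differences was not tested.

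Other loci of sugar movement were read by number only, their classes having been preset and not checked against a gene map. Of 24 loci preset as SWEET carriers, all in the table, 15 were tested in root and 16 in leaf, and of 4 preset as invertases 2 were tested in each. In roots of day 7, averaged over the cultivars, 3 SWEET loci rose and 1 fell at low nitrogen, with a median change of 0.22 over the 15, against -0.02 for all genes. The 4 calls among 15 loci were near the 29.5% called among all genes. Solyc06g060590 averaged 12.0 ± 8.73 FPKM at low and 36.0 ± 5.33 FPKM at normal nitrogen (SD, n = 6 each, -1.71 ± 0.27 SE, limma adjusted p = 0.000133). Solyc03g097600 averaged 8.62 ± 3.05 and 3.38 ± 0.830 FPKM (1.07 ± 0.22, adjusted p = 0.00147). The invertase locus Solyc10g083300, of the enzymes that feed hexose carriers, averaged 37.2 ± 8.64 and 23.5 ± 10.7 FPKM (0.73 ± 0.26, adjusted p = 0.0414), and was the 1 invertase of 2 that rose. In Guozhen roots alone 4 SWEET loci and both invertases rose and 2 SWEET loci fell, and in Guizhen roots 1 SWEET locus fell, where 27.6% of all genes were called in Guozhen and 7.92% in Guizhen. The difference between the cultivars' responses was called for 1 of 15 SWEET loci and 0 of 2 invertases with limma, with 1 of each list at an unadjusted p below 0.05. Among all genes 0.387% were called for that difference.

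In leaves of day 7, 1 SWEET locus of 16 rose and 2 fell, with a median of 0.10, against 0.16 for all genes. These 3 calls among 16 loci compare with 36% of all genes called. Of the invertases, 0 of 2 were called with limma, and 0 had an unadjusted p below 0.05. Solyc06g060590 again was lower at low nitrogen, with 2.57 ± 1.72 and 5.74 ± 1.54 FPKM (SD, n = 6 each, -1.02 ± 0.20 SE, limma adjusted p = 0.000879). Solyc04g064610 averaged 15.2 ± 4.15 and 10.3 ± 2.92 FPKM (0.52 ± 0.20, adjusted p = 0.0477), and Solyc03g097610 28.0 ± 5.51 and 37.9 ± 5.54 FPKM (-0.43 ± 0.15, adjusted p = 0.0334). In Guozhen leaves alone 1 SWEET locus fell, and in Guizhen leaves 1 rose and 1 fell, where 17.7% and 16.6% of all genes were called. At day 1 no locus of either list was called with limma for nitrogen, in single cultivars or averaged. Averaged, 3 SWEET loci in root and 6 in leaf, and 1 invertase in leaf, had an unadjusted p below 0.05 there.

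For day, between 4 and 8 of 15 SWEET loci were called in root and 8 or 9 of 16 in leaf, in both directions. Among all genes 42.9 to 54.5% were called in root and 59.2 to 61.9% in leaf, so that the SWEET counts were near or below the general share. The 2 tested invertases went opposite ways in all 4 root comparisons, 1 called higher and 1 called lower at day 7. In leaf 1 invertase was called lower at day 7 in each of 4 comparisons, and the other was called higher in 2 of them.

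The patterns over the 16 group means gave a second view of the members. Pearson correlations of mean log2(FPKM + 1) over those 16 groups, which share organ and day, were highest between SUT4 and HT1 at 0.96 and lowest between HT1 and HT2 at 0.10. SUT1 stood at 0.69 with HT2, 0.34 with SUT2, 0.33 with SUT4 and 0.15 with HT1. Among 19405 genes of at least 1 FPKM on average, the 5 members counted in, the closest to SUT1 were Solyc05g021580 and Solyc11g005550, at 0.89 each, the loosest match of the 5. The closest to SUT2 were Solyc06g062990 and Solyc05g053230 and to SUT4 Solyc06g060940 and Solyc02g077240, all at 0.98. The closest to HT1 were Solyc08g079060 and Solyc07g054760 at 0.99 and 0.98, and to HT2 Solyc10g078220 and Solyc02g092120 at 0.99.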

How the data were processed

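RNA of 48 tomato root and leaf samples was sequenced, with NEBNext Ultra libraries from RNA extracted with a Tiangen kit, per the labels' protocols. The authors deposited 1 table of FPKM values for all samples. The tools HISAT2 and StringTie are named, per the submitters' processing notes. Tool versions, build and annotation are not given in the sources used here. Groups were taken from the sample labels, 3 per group. Depth is known only in relation, from the step of values below 0.15 FPKM.

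The 5 loci, the lists and the tests were chosen with earlier results of these data known. FPKM was transformed with a pseudocount of 1, genes were kept if 3 or more of the fitted libraries reached 1 FPKM, and limma 3.58.1 in R 4.3.3 fitted 1 mean per group with a variance trend, on the 24 libraries of an organ or, for root against leaf, on all 48. P-values were adjusted by Benjamini-Hochberg over all genes within each comparison and were called below 0.05. The fit was tested on simulated data. All 5 transporters are named. For each, the 2 genes closest in pattern are named. Of the other lists, up to 2 called loci per direction and organ are named at day 7 averaged over cultivars, by size of change, if their higher group mean reached 5 FPKM. Alternatives were a pseudocount of 0.1, no filter, median-of-ratios size factors (size-factor scaling), a replicate block, no variance trend, only the libraries compared, and each library left out. The comparison of root minus leaf between cultivars was added after the data were seen. The RefSeq gene table (41476 entries) shares no identifier with the FPKM table. Members were matched to it by symbol, and no sequence or coordinate was used. Figures were drawn with matplotlib 3.10.9 in Python 3.11.15.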

Additional observations from a re-analysis of the deposited data

Results flagged for a closer look

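The response of SUT1 to low nitrogen differed between day 7 and day 1 in Guozhen roots, by a test of the difference itself. The day 7 response minus the day 1 response was -0.88 on the log2 scale (limma adjusted p = 0.00251), and it ran from -0.99 to -0.80 with a library left out, called each time.

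For SUT1, root minus leaf in Guozhen differed from root minus leaf in Guizhen at day 1, by -1.11 at low nitrogen (limma adjusted p = 0.0466) and by -1.24 at normal nitrogen (adjusted p = 0.0130). This comparison was added after the data were seen. The call at low nitrogen was lost without any of 10 of its 12 libraries, and with a pseudocount of 0.1, size-factor scaling or only the libraries compared (adjusted p = 0.0744, 0.0508 and 0.0682). The call at normal nitrogen was lost without any of 4 libraries and with only the libraries compared (adjusted p = 0.127).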

How the results depend on the processing

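For 126 single results, the 1692 alternative values kept direction and side of the threshold in 1585 cases, lost the call in 73, gained it in 33 and reversed in 1, and 83 results did so under no alternative. The reversal was SUT1 in root against leaf of Guizhen at day 7 and normal nitrogen, at -0.14 with size-factor scaling. The cause was not tested. For calls among the transporters, only the libraries compared, which leaves fewer samples in the fit, gave 1 in place of 3 for nitrogen and 0 in place of 2 for cultivars. Leaving out a library gave 1 to 5 for nitrogen, 1 to 3 for cultivars, 1 to 2 for the difference between days in the nitrogen response, and 1 to 4 for root minus leaf between cultivars (4 without Guozhen leaf, day 1, low, replicate 1).

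The rule for pairing by replicate number was that all 3 correlations of deviations be over 0.1. It was met in 1 of 32 comparisons (root minus leaf, Guizhen, day 7, low nitrogen). There each root library correlated best with the leaf library of its own number. The same held in Guizhen of day 7 at normal nitrogen and in Guozhen of day 1 at low nitrogen. In Guozhen of day 7 at normal nitrogen 0 of 3 did. Pairing of root with leaf was therefore not settled, and the tests took them as unpaired. The replicate block gave 2 calls in place of 3 for nitrogen (SUT4 in Guozhen leaf of day 7, adjusted p = 0.0537) and 1 in place of 2 for root minus leaf between cultivars (SUT1 at low nitrogen, adjusted p = 0.0570). It left the counts at 4 for nitrogen averaged over cultivars, 0 and 1 for the response differences, 28 for day, 2 for cultivars and 29 for organs. Without read counts the sampling error of low values, such as HT2 at day 7, could not be computed.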
